A study of Mus musculus with 6 samples.

Results

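The reads described here are PARE reads whose sequence stands on 2 lines of a tissue's table, so that each read has 2 genomic locations. They were found by turning every listed sequence to the strand of the read and keeping those on 2 lines of the same table. A segment of the plus strand of chromosome 17 was left out. The 6 tables together gave 26485 such distinct reads of 514625 (5.15%), with 44636 of 876366 counts (5.09%). No read in any table had more than 2 lines. The study surveyed 5′-monophosphate ends of polyadenylated RNA in whole brain, lung, liver, kidney, ovary and spleen of adult mice of BALB-c background, with 1 library per tissue and no treatment named. The number of animals behind a library is not given in the sources used here. With no replicate of a tissue, no test between tissues was possible, and differences between tissues are given with intervals that cover counting error only. In such bulk samples, fewer cells of a type and less RNA per cell cannot be told apart.

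PARE joins an adaptor to RNA ends that carry a 5′ monophosphate, which cleavage, decapping or decay leaves and a cap hides, and reads a short tag from that end. A short tag can fit 2 places when a gene has a copy. A processed copy, made by reverse transcription of a spliced messenger RNA, lies elsewhere in the genome and lacks the introns of its parent, whereas a copy made by duplication of DNA lies near its parent as a rule and keeps the introns. Genes of ribosomal proteins are known for many processed copies, families such as the serpins and the cytochromes P450 for tandem duplicates, and several microRNAs for being encoded at more than 1 place. A read at 2 locations does not tell which of them was transcribed.

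A selection of the strongest of these reads is printed 5′ to 3′, with the poly(A) signal hexamer AATAAA or the microRNA seed (bases 2 to 8) in capitals, because they show the kinds of place met below: genes of ribosomal proteins, microRNAs, places with no gene named, and 1 end on chromosome 1.
chromosomes 4 and 14, 231 counts: acaaaagAATAAAgcagcct
let-7a, chromosomes 9 and 13, 220 counts: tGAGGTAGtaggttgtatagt
Rpl35, chromosomes 2 and 1, 207 counts: aaagtgcgagactgactggc
chromosomes 10 and 1, 188 counts: atccacctgtacactgttat
Rps21, chromosomes 2 and 16, 129 counts: tttgtggacctgtacgtgcc
let-7f, chromosomes X and 13, 116 counts: tGAGGTAGtagattgtatag
Rpl35, chromosomes 2 and 1, 114 counts: AATAAAgtgcgagactgact
The first of them, at chr4:108457028-108457047 on the plus strand and chr14:70920762-70920781 on the minus strand (build mm9, as all coordinates here), had 228 counts in lung, 2 in liver and 1 in spleen. The Rpl35 reads lie 3 nt apart, at chr2:38857101-38857120 and chr2:38857104-38857123 on the minus strand, and Rpl35 encodes a protein of the large ribosomal subunit. The Rps21 read, from a gene of the small subunit, lies at chr2:179992360-179992379 on the plus strand and chr16:35573602-35573621 on the minus strand. It had 75 counts in lung, 32 in liver, 20 in kidney and 2 in ovary, and was not seen in brain or spleen.

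Library totals, each read counted once, ran from 30591 counts in ovary to 512273 in lung, and a count of 0 allowed up to 5.86 CPM (counts scaled to 1000000 reads of the library) in lung and 98.1 in ovary (3 counts). PCR reads without molecular identifiers are not independent molecules. The spleen library stood apart from the others in base composition: its reads of 1 location had a mean G+C content of 31.2%, against 44.97 to 49.98% in the other 5 libraries, and 36.5% of them held AATAAA or ATTAAA, against 3.04 to 9.16%. Results that rest on spleen are given with and without it. Of 36 marker genes of the tissues and of red blood cells, 8 could be placed (Sftpa1 and Ager of lung, Kap, Gpx3, Umod and Miox of kidney, Inha of ovary, H2-Aa of spleen), and each had its highest CPM in its own tissue. The kidney marker Kap, with 8753 counts in kidney, also had 2299 in lung. None of the listed markers of brain, liver or red blood cells was placed.

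Spleen had the largest share of counts in reads of 2 locations. Liver had the smallest with reads as listed, but not with reads cut to 20 nt, where it had 7.28%, lung 5.06% and kidney 4.98%. The share was 4.85% in brain (95% interval 4.63 to 5.08, exact Clopper-Pearson), 4.93% in lung (4.87 to 4.98) and 4.02% in liver (3.89 to 4.16). It was 4.85% in kidney (4.74 to 4.95), 5.76% in ovary (5.50 to 6.03) and 9.43% in spleen (9.17 to 9.70). Brain, lung and kidney overlapped in their intervals, and ovary and spleen lay above them. Counted once per distinct sequence the share was 8.36% in spleen, 6.28% in ovary, 5.23% in lung, 5.17% in kidney, 5.10% in brain and 5.07% in liver, so the low share of liver was seen in counts and not in distinct reads. The high share of spleen was also present among reads of matched composition below 60% G+C: at 40 to 50% G+C it was 9.88% in spleen and 3.78 to 5.81% in the other 5 libraries. It was absent among reads of 60% G+C or more. There the share was 3.62% in spleen (2.84 to 4.54), 4.42% in kidney, 4.29% in brain, 4.27% in ovary, 3.53% in liver and 3.49% in lung. Among reads with neither hexamer and no final run of adenines it was 7.72% in spleen (7.38 to 8.06) and at most 5.53% elsewhere. Most of the reads were seen in 1 library only (88.3%, against 92.4% of reads of 1 location), and 13 were seen in all 6.

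**Figure D1:**
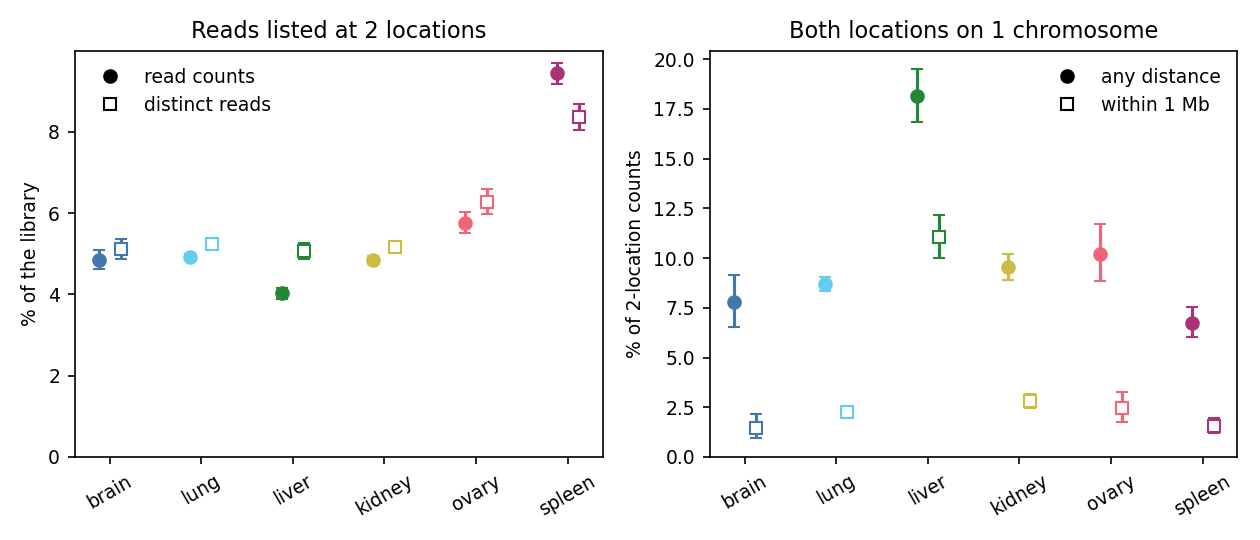
The left panel plots the percentage of each library's counts (filled) and distinct reads (open) listed at 2 locations, and the right panel the percentage of 2-location counts with both locations on 1 chromosome at any distance (filled) or within 1 Mb (open); bars are exact 95% intervals of counting error. Spleen is highest on the left at 9.43% and liver highest on the right at 18.1%.

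Every read of 2 locations had 1 location on the plus strand and 1 on the minus strand (44636 of 44636 counts, lower bound 99.99%), in each of the 6 libraries. Copies that lie in the same direction on 2 chromosomes were therefore not seen among the listed reads, and whether the tables leave them out by their making was not tested. The locations were on different chromosomes for 90.6% of counts. Pairings of 213 kinds were seen, Y included with 4 reads, where the autosomes and X alone allow 210. Counts were uneven between the pairings, and in several of the largest a single place held most of them. Chromosomes 1 and 2 shared 1641 counts, of which 59.8% came from Rpl35. Chromosomes 1 and 15 shared 1067, of which 85.5% came from 1 place of 94 reads at chr1:39428147 and chr15:90594741. Chromosomes 10 and 17 shared 727, with 84.3% from Oaz1, the inhibitor of ornithine decarboxylase. Chromosomes 6 and 19 shared 599, with 66.8% from Ldhb, a subunit of lactate dehydrogenase, and chromosomes 8 and 10 shared 562, with 92.3% from Psap, the precursor of the saposins of the lysosome. In others it held less: 39.9% of the 759 counts of chromosomes 2 and 10, 43.9% (Rack1) of the 701 of chromosomes 11 and 15 and 25.3% of the 553 of chromosomes 1 and 11.

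**Figure D2:**
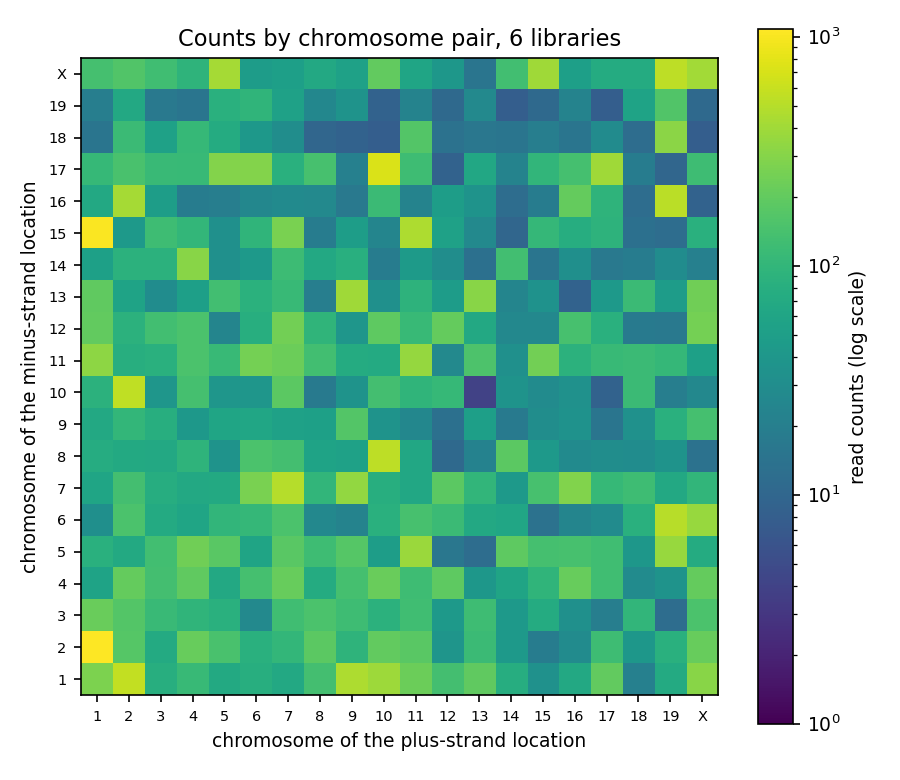
The map gives the read counts of the 6 libraries for each chromosome of the plus-strand location (horizontal) and of the minus-strand location (vertical), in colour on a log scale. Bright squares mark pairings led by single places, such as the 1641 counts shared by chromosomes 1 and 2 in either strand order.

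Chromosome X held more of these reads than of the others in each library. It held 6.98% of the locations in ovary, 6.79% in brain, 6.35% in lung, 6.20% in kidney, 6.12% in spleen and 6.27% in liver. Of the reads of 1 location, 3.31% lay on X in ovary, 3.23% in brain, 2.67% in lung, 2.74% in kidney, 3.18% in spleen and 1.88% in liver. The 2 ranges did not overlap, and the difference, looked at after the values were seen, was not tested. Over all libraries X held 6.15% of locations against 2.69% of reads of 1 location, while chromosome 11 held 6.50% against 8.27%. Of the 2717 reads with X on 1 side and another chromosome on the other, 1338 had at least 10 counts of reads of 1 location within 500 nt of the 2 ends and at least 90% of these counts on 1 side. That side was X for 225 of them (16.8%, interval 14.8 to 18.9) and the other chromosome for the rest.

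Reads on the same 2 chromosomes that follow each other at both places within 10 kb were joined to locus pairs. Each is a place on the plus strand and a place on the minus strand. The reads fell into 7100 locus pairs. Of these, 5100 held 1 read (14.2% of counts), and 992 held at least 5 reads, with 70.8% of the reads and 76.0% of the counts. Most places had a single partner: 10509 of 12043 places (87.3%) belonged to 1 locus pair, 415 to at least 3 and none to more than 9. As no read was listed at more than 2 locations, each read could give a place only 1 partner. The place with 9 partners, on chromosome 5 from 90889979 to 90905579, had 64 of its 80 counts in liver. Within 500 nt of the ends, 47.5% of the reads had at least 10 counts of reads of 1 location with at least 90% of them on 1 side, 23.6% had them shared by both sides, 21.2% had 1 to 9 and 7.73% had none.

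In 330 of the 992 larger locus pairs (33.3%), the reads ran in step over a stretch on both sides, then jumped ahead by more on 1 side than on the other. There were 577 such jumps, with a median excess of 718 nt on the longer side (range 20 to 18184). They were not confined to distant places. Jumps were seen in 301 of 880 locus pairs on different chromosomes, 17 of 70 over 1 Mb apart on 1 chromosome and 12 of 42 within 1 Mb. In 131 locus pairs with at least 2 jumps, the same side was the longer one throughout in 108. Among locus pairs whose jumps all favoured 1 side, that side was the named gene's in 69 of 72 (95.8%, 88.3 to 99.1), and 7 further locus pairs with a named gene, left out of this count, had jumps in both directions. In the same class, where reads of 1 location lay mostly on 1 side, that side was the longer one in 112 of 143 (78.3%, 70.7 to 84.8). The longer side also offered more sequence in which such reads could be counted. The 2 measures are therefore not independent, and how much of the match comes from this was not tested. A side was named only downstream of a placed gene start and within the gene's listed length. A copy without such a start could not be named, and the part of this in the 69 of 72 was not tested. The reads of Oaz1 show the pattern: 266 reads with 613 counts spread over 2579 nt on chromosome 10, from 29 nt after the gene's start, and over 1019 nt on chromosome 17. Its 4 jumps had excesses of 1331, 78, 77 and 74 nt on the chromosome 10 side. The 186 reads of Ldhb spread over 17645 nt on chromosome 6 and 1240 nt on chromosome 19 with 7 jumps, and those of Rps21 over 834 nt on chromosome 2 and 239 nt on chromosome 16 with 3 jumps. Rpl4, a gene of the large ribosomal subunit, had 115 reads over 3590 nt on chromosome 9 and 1227 nt on chromosome 1, with 7 jumps.

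**Figure D3:**
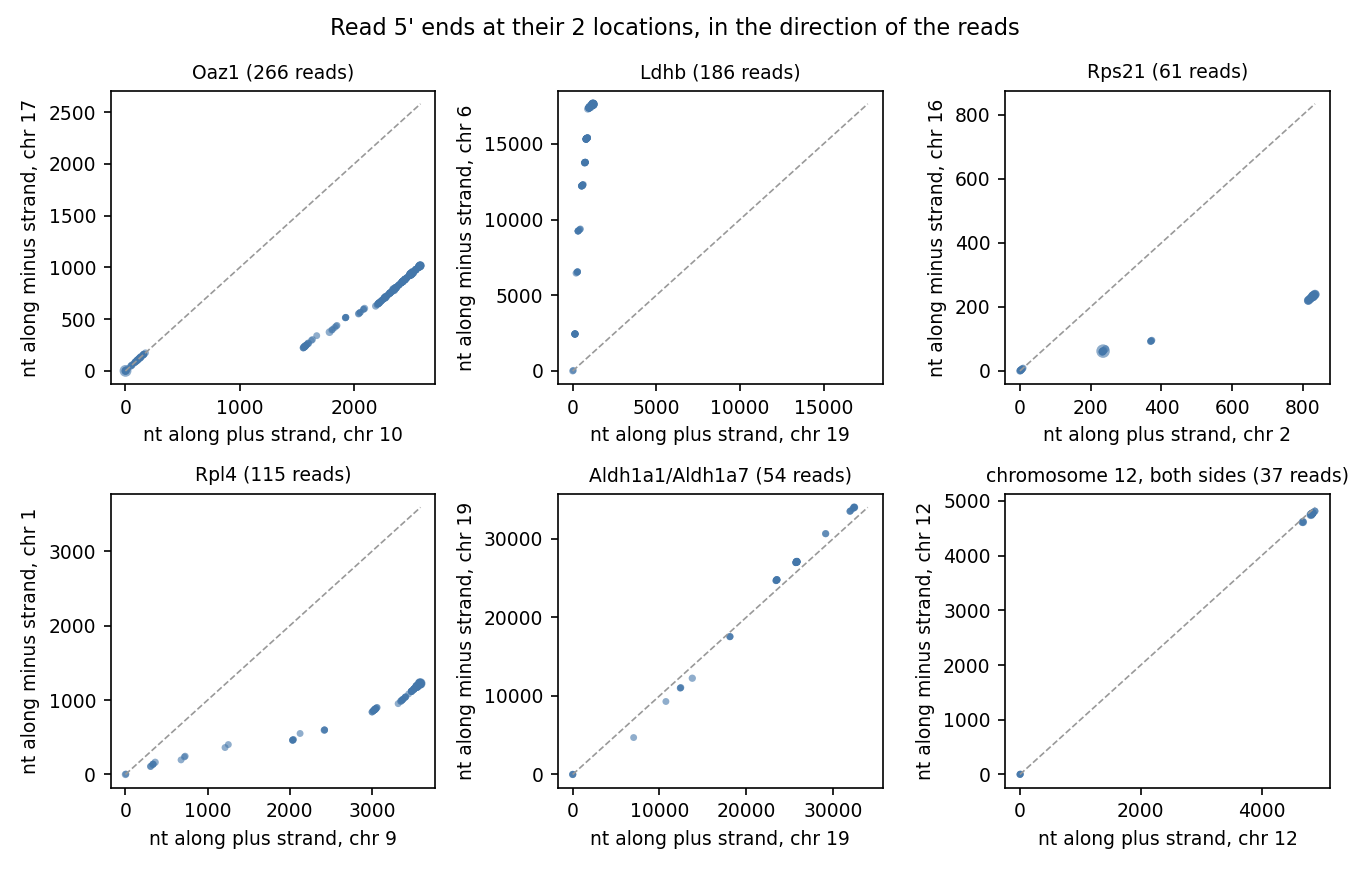
Each point is the 5′ end of a read, plotted by its distance in nt from the first end along the plus strand (horizontal) and along the minus strand (vertical), with area by count and a dashed line of equal distance. Oaz1, Ldhb, Rps21 and Rpl4 leave the line in steps, while Aldh1a1/Aldh1a7 and the places of chromosome 12, with 5 jumps and 1 jump, stay near it.

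Spans were nearly equal where the 2 places lay close together. Among locus pairs of at least 5 reads and 500 nt, the longer span was a median 2.95 times the shorter for places on different chromosomes (522 pairs), and 61.9% of them had a ratio of at least 2. The median was 2.62 for places over 1 Mb apart on 1 chromosome (36 pairs). It was 1.02 for places within 1 Mb (28 pairs), of which 7.14% had a ratio of at least 2. Aldh1a1 and Aldh1a7, neighbouring aldehyde dehydrogenase genes on chromosome 19, were named on their own sides: their 54 shared reads spread over 32425 nt and 33984 nt.

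Gene names were given by matching reads to the promoter windows of RefSeq, which placed the starts of 1408 genes on mm9, and 505 of these genes (35.9%) had a read of 2 locations. Cytosolic ribosomal proteins had one in 21 of 24 placed genes (87.5%; 2677 counts), led by Rpl35 with 981 counts, Rps21 with 389, Rpl4 with 340, Rps9 with 296 and Rplp2 with 207. Genes of the mitochondrial respiratory chain, a list added after the values had been seen, had one in 25 of 41 (61.0%; 1174 counts), led by Cox6a1, a subunit of cytochrome c oxidase, with 348 counts, and Uqcrh, of complex III, with 160. Cytochromes P450, the haem enzymes that oxidise drugs and steroids, had one in 7 of 8 but with 40 counts in all. These were 17 in liver (208 CPM), 17 in lung (33.2 CPM) and 6 in kidney (35.4 CPM). Predicted genes had one in 17 of 266 (6.39%). Both placed globin genes, Hbb-bs and Hbb-bt, had such reads, with 13 counts in all, 6 in lung and 7 in spleen. Genes were placed only where a read reached their promoter window, so the shares describe genes with such a read. The window also covers bases before the start, and whether each placed gene was expressed was not tested.

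Rpl35 was the strongest locus pair. Its 59 reads began within 64 nt, 3467 to 3531 nt after the gene's start, at equal distances on chromosome 1. The level was 4362 CPM in spleen, 1275 in lung, 948 in ovary, 477 in liver, 286 in brain and 265 in kidney. Spleen stood 3.42 times above lung (2.91 to 4.01, exact conditional binomial interval), and lung was the highest of the other 5. The next, at chr1:39428147 and chr15:90594741 with no gene placed, also began within a short stretch, 38 nt, and 3 of its 94 reads are shown for that, the third with the hexamer in capitals.
chromosomes 1 and 15, 90 counts: tctacagacggtcaacgtgg
chromosomes 1 and 15, 75 counts: agacggtcaacgtggatgag
chromosomes 1 and 15, 52 counts: tcgtgtcaAATAAAgttgca
Its level was 2298 CPM in spleen, 1275 in lung, 1079 in ovary, 657 in brain, 403 in liver and 365 in kidney. Spleen was again the highest, 1.80 times lung (1.46 to 2.21), but this order turned under the scaling by a trimmed mean of M values (TMM), where the ratio was 0.705. The ratio of Rpl35 was 1.34 under TMM (1.14 to 1.57).

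The level of Oaz1 was 807 CPM in liver, 794 in lung, 752 in ovary, 486 in brain, 483 in kidney and 383 in spleen. Its highest libraries, liver and lung, differed 1.02-fold (0.770 to 1.32), within counting error, and liver stood 2.11 times above spleen, the lowest (1.24 to 3.77). Under TMM lung was the highest and stood 5.31 times above spleen (3.31 to 9.04). Single reads of it differed from this order. The read at its 5′ end had 52 of 66 counts in lung, but by CPM lung (102), ovary (98.1) and brain (85.8) lay close together. It had 47.1 CPM in kidney and 0 in liver and spleen, and brain and ovary held 3 counts each. One 2374 nt after the start had 13 of 15 counts in liver.
Oaz1, 30 nt after the start, 66 counts: gcgaacggcgagcagcggcg
Oaz1, 2374 nt after the start, 15 counts: tgccctctcctgggttagtc
Ldhb was highest in kidney, at 1220 CPM, with 400.2 in brain, 320.1 in lung, 294 in ovary, 63.8 in spleen and 36.7 in liver. Kidney stood 3.05 times above brain (1.78 to 5.67), and liver and spleen, with 3 counts each, lay at the other end. Psap had 2085 CPM in spleen, 829 in brain, 560.2 in lung, 556 in ovary, 428 in liver and 312 in kidney. Dstn, which encodes an actin-severing protein, had 128 CPM in spleen, 114 in brain, 631 in lung, 752 in ovary, 196 in liver and 265 in kidney. Psap was highest in spleen, next in brain by CPM and in lung under TMM, where spleen stood 1.46 times above lung (1.14 to 1.84). Reads of 1 location near its chromosome 10 side were highest in kidney (271 CPM), with 1 count in spleen. Near its chromosome 8 side they were highest in spleen, with 8 of 16 counts (170 CPM). Dstn was highest in ovary and lung, which differed 1.19-fold (0.745 to 1.82), and under TMM in lung. The reads of both began far from the start, 24752 to 24951 nt in Psap and 27514 to 27972 nt in Dstn, at equal distances on both sides.

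Reads of 10 mature microRNAs were among these reads, with 620 counts in 17 reads. For 9 of them RefSeq lists 2 gene places whose chromosome and strand match the 2 locations. For let-7a it lists 1, on chromosome 13, which matches. Their mature sequences are shown with the seed in capitals, since 561 of the counts came from let-7a and let-7f, which share 1 seed.
let-7a-5p: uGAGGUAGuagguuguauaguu
let-7f-5p: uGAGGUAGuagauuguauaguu
miR-30c-5p: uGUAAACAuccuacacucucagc
miR-16-5p: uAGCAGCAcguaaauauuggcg
miR-7a-5p: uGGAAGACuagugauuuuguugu
The first begins at chr9:41344815 and chr13:48633629, and the second at chrX:148346896 and chr13:48633279. let-7a had 1458 CPM in brain (51 counts), 785 in ovary (24), 754 in kidney (128), 287 in lung (147), 281 in liver (23) and 63.8 in spleen (3). let-7f had 743 CPM in brain (26 counts), 163 in ovary (5), 501 in kidney (85), 111 in lung (57), 122 in liver (10) and 42.6 in spleen (2). Both were highest in brain by CPM and lowest in spleen. The let-7a locus pair was 1.86 times higher in brain than in ovary (1.12 to 3.16), and the let-7f locus pair 1.49 times higher in brain than in kidney (0.929 to 2.31), within counting error. Under TMM kidney was the highest for both microRNAs, 1.296 times brain for let-7a (0.930 to 1.83) and 1.69 times for let-7f (1.08 to 2.73). miR-30c had 18 counts, miR-16 had 17, miR-7a had 15, of which 7 in brain, miR-92a had 5, and miR-128, miR-199a, miR-29b and miR-19b had 1 each.

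A locus pair counted as led where its highest library held 20 counts or more and the interval of the CPM ratio to the next library lay wholly above 1. Of 139 locus pairs with 20 counts in the highest library, 60 were led (43.2%), near the 42.2% (958 of 2270) of windows of 2 kb of reads of 1 location. Spleen led 29 (20.9%, against 8.06% of windows), liver 11 (7.91%, against 12%), kidney 11 (7.91%, against 10.3%), lung 6 (4.32%, against 8.33%), brain 3 (2.16%, against 2.73%) and ovary 0 (against 0.837%). The kidney-led pairs of chromosomes 10 and 1, 1 and 1, and 12 and 1 share 1 end, position 24619958 of chromosome 1. The 2 lines of their reads give different counts, and this tally uses the higher. Without spleen 36 of 137 were led. With each distinct sequence counted once, 16 of 63 were led, 6 by liver, 4 by kidney and 3 by spleen. Of single reads at 2 locations 25 of 41 were led (61%, against 55.6% of single reads at 1 location). Spleen led 29.3% of them (against 6.64%), kidney 19.5% (13.2%), lung 7.32% (21.8%), liver 4.88% (12.5%), and brain and ovary 0 (0.79% and 0.711%). The kidney tally of 8 reads fell to 4 of 36 tested where the lower of differing counts was taken. Under TMM 91 of 193 locus pairs were led, of which kidney held 34, lung 23 and spleen 22, and 51 kept the library they had. Shares of windows are given for the main rule only. The counts without spleen, over distinct sequences and under TMM therefore have no such share beside them. For 46 of the 60, reads of 1 location within 500 nt were highest in the same library, for 10 in another, and 4 had under 10 counts there.

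**Figure D4:**
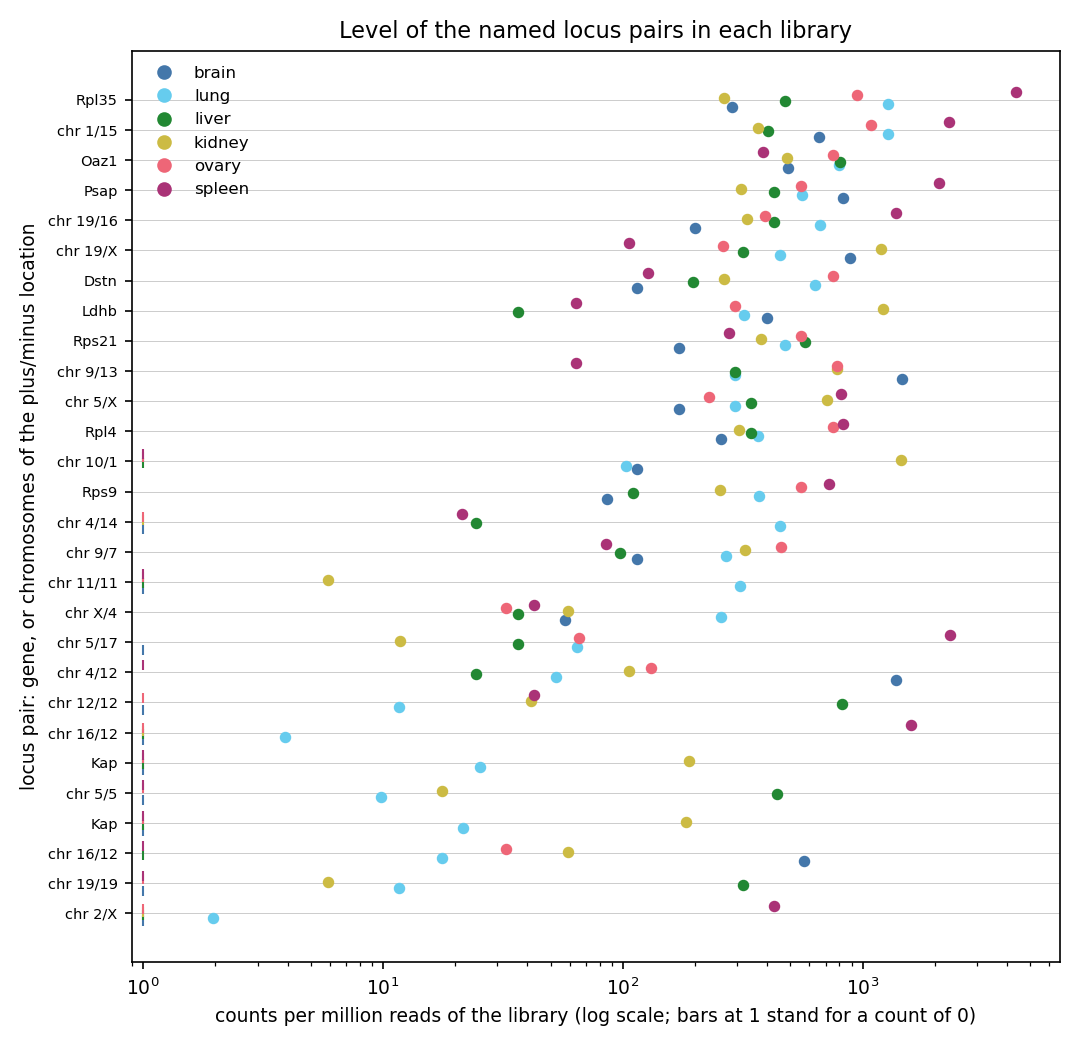
Each line is 1 of the 28 named locus pairs, labelled by its gene or by the chromosomes of its plus and minus locations, and each point its level in 1 library in CPM on a log scale; bars at 1 stand for a count of 0. Points lie together for Oaz1 and far apart for the pairs of chromosomes 16 and 12, where spleen reached 1596 CPM in the pair that it led.

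Liver differed from the other libraries in reads whose locations were near neighbours. Both locations lay on the same chromosome for 18.1% of liver counts (16.8 to 19.5), against 10.2% in ovary, 9.55% in kidney, 8.70% in lung, 7.78% in brain and 6.74% in spleen. They lay within 1 Mb for 11.1% (10.01 to 12.2) in liver and for 1.47 to 2.80% in the other 5 libraries. These 364 liver counts came from 53 locus pairs, and 10 of these held 74.5%. The strongest was on chromosome 12, from 105579031 to 105583913 on the plus strand and from 105385165 to 105389980 on the minus strand. It had 67 counts in liver (819 CPM), 6 in lung, 7 in kidney, 2 in spleen and none in brain and ovary, 19.2 times as high in liver as in spleen (5.12 to 162). Near it, 747 of 930 counts of reads of 1 location on the plus side were also from liver. It lies between the placed starts of Ddx24 and Bdkrb2, where RefSeq lists 39 genes, 23 of them of the Serpina family of secreted protease inhibitors. Its strongest reads are these.
chromosome 12, 11 counts, all in liver: tttctgaacctggaatctgc
chromosome 12, 7 counts, 5 in liver: cattcaagctctgattggct
A second locus pair overlapped its minus side, reached plus-strand ends from 105630878, and had 23 of 28 counts in liver.

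Other liver-led neighbours lay in stretches that hold other gene families among their genes. On chromosome 19, from 40185788 to 40188358 and from 40112513 to 40114801, 26 of 33 counts were from liver and 6 from lung, and a second locus pair, whose own places lie 25774 nt apart, had 21 of 27 in liver. Both lie between Cyp2c29 and Entpd1, with 10 genes of the Cyp2c family of cytochromes P450 among the 14 listed between them. On chromosome 16, from 23069334 to 23081846 and from 22985846 to 23004069, 46 of 85 counts were from liver (562 CPM) and 28 from kidney (165 CPM). The stretch around them lists 34 genes, the kininogen genes Kng1 and Kng2 among them, and the locus pair itself was given no gene name. On chromosome 15, from 77563035 and from 77234239, 24 of 34 counts were from liver, with no gene or family named. Akr1c6, an aldo-keto reductase named like Cyp3a25, Ager and Fabp3 after the values were seen, had 17 of 22 counts in liver and Cyp3a25 had 9 of 15, both under the minimum for a call. The Aldh1a1/Aldh1a7 pair was not confined to liver: its level was 490 CPM in ovary (15 counts), 220 in liver (18), 66.4 in lung (34), 41.3 in kidney (7), 28.6 in brain (1) and 0 in spleen. A liver read of chromosome 5, at chr5:90905493-90905512 and chr5:48263637-48263656, was of another kind, a single strong end.
chromosome 5, 41 counts, 35 in liver: tgagaaaaaaagacatgaag
Reads of 1 location near its plus side had 7472 counts, 6414 of them in liver, and none lay near its minus side. RefSeq lists 45 genes between the placed starts on either side of that end, with the albumin gene Alb among them. The end itself was given no gene name.

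Places led by lung, kidney and brain follow. The lung read on chromosomes 4 and 14 shown first belonged to a locus pair of 453 CPM in lung, 24.4 in liver and 21.3 in spleen, and 0 in the others. Lung stood 18.5 times above liver (5.07 to 154), and reads of 1 location near its chromosome 14 end had 9307 of 9386 counts in lung. On chromosome 11, from 120627343 to 120628651 and from 120591064 to 120592383, 157 of 158 counts of 70 reads were from lung and 1 from kidney, with no gene placed. Ager, the receptor for advanced glycation end products that is abundant in alveolar cells, had 1 read of 54 counts, 52 in lung and 2 in liver. In kidney, Kap, a kidney androgen-regulated gene, had 2 led locus pairs, 44 and 3748 nt after the start. The former had 31 counts in kidney and 11 in lung, and the latter 32 and 13, with none in the other 4 libraries. Fabp3, a fatty acid binding protein, had 24 counts in kidney and 17 in lung, over 6673 nt on chromosome 4 and 627 nt on chromosome 10. In brain, a place on chromosome 12 from 112907665 to 112910487 paired with chromosomes 4 and 16. The first pairing had 48 counts in brain (1372 CPM), 27 in lung, 18 in kidney, 4 in ovary, 2 in liver and 0 in spleen, and brain stood 10.5 times above ovary (3.84 to 40.1). The second had 20 counts in brain, 9 in lung, 10 in kidney and 1 in ovary. The stretch between its placed neighbours, Setd3 (3490214 nt away) and Bag5 (43802 nt away), holds 38 listed genes. Ckb, the brain creatine kinase, is 1 of the 38, and the place itself was given no gene name.

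Spleen-led locus pairs often had reads with these hexamers or final adenines. Of the 29 locus pairs, 16 (55.2%) had at least 50% of their counts in reads with either hexamer or with a final run of at least 6 adenines, against 3 of the 110 other tested pairs (2.73%), and 14 spanned under 100 nt on both sides, against 24 of the others. The 29 held 37.2% of the spleen counts of 2-location reads. Named among them were Rpl35, Rpl38, Psap, Cox6a1 and Rack1, a protein of the small ribosomal subunit. Near the gene side, reads of 1 location were highest in spleen beyond counting error for Rack1 only. They were highest there in kidney for Cox6a1 (955 CPM, against 638 in spleen) and Psap, and in ovary for Rpl38 (2 counts in spleen). Near the other side spleen was highest for each, beyond counting error for Cox6a1 (52 of 81 counts) and Rpl38 (54 of 145). Strong spleen reads are shown with the hexamer or the final adenines visible.
chromosomes 5 and 17, 83 counts, 57 in spleen: AATAAAaatcaagacttgaa
chromosomes 16 and 12, 72 counts, 70 in spleen: tatgtatcttgaaaaaaaaa
chromosomes X and 12, 31 counts, 30 in spleen: tttatgtatcttgaaaaaaa
The second and the third begin 2 bases apart on the minus strand of chromosome 12, at 76731927 and 76731929, and have their other locations on chromosomes 16 and X. The locus pair on chromosomes 16 and 12 had 1596 CPM in spleen, 3.90 in lung and 0 in the other 4. That on chromosomes 5 and 17 had 2320 CPM in spleen, 64.4 in lung, 65.4 in ovary, 36.7 in liver, 11.8 in kidney and 0 in brain. Reads of 1 location in spleen are themselves richer in these features, as given above, and the part of this in the spleen-led calls was not tested.

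Within each library, the distinct reads of 2 locations were compared with those of 1 location for 6 measures, by a two-sided exact permutation test over sign flips of the 6 differences, whose smallest p is 0.03125, with Benjamini-Hochberg adjustment over the 6. Mean G+C was lower in 6 of 6 libraries, with differences from -2.39 points in spleen to -0.823 in kidney (mean difference -1.68 ± 0.543, SD, n = 6; exact permutation, adjusted p = 0.0469). Reads with AATAAA or ATTAAA, searched on the strand of the read, were more frequent in 6 of 6, with a mean of 13.8% against 11.1% (difference 2.71 ± 1.23 points, SD, n = 6; exact permutation, adjusted p = 0.0469). Reads ending in at least 6 adenines were more frequent in 6 of 6 by a mean of 0.683 ± 1.20 points (SD, n = 6; exact permutation, adjusted p = 0.0469), of which spleen gave 3.11 points and kidney 0.0177, and the mean was 0.199 without spleen. By counts the order was the other way in brain, lung, liver and kidney. There 1.26, 2.02, 1.33 and 1.20% of counts with such an end were at 2 locations, against 4.99, 4.95, 4.04 and 4.85% of the rest. In ovary it was 6.06% against 5.76%, and in spleen 15.5% against 9.02%. Reads of 20 nt rather than 21 were more frequent in 6 of 6, by 2.73 ± 0.651 points (SD, n = 6; exact permutation, adjusted p = 0.0469). A shorter sequence fits 2 places more readily, so the rule that chose these reads favours this direction, and no conclusion is drawn from the length test. Counts per distinct read (difference -0.0812 ± 0.180, adjusted p = 0.375 by exact permutation) and the share of reads counted once (difference -2.28 ± 2.64 points, adjusted p = 0.15 by exact permutation) did not pass. With 5 libraries the smallest p is 0.0625, so no measure can pass without lung or without spleen.

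**Figure D5:**
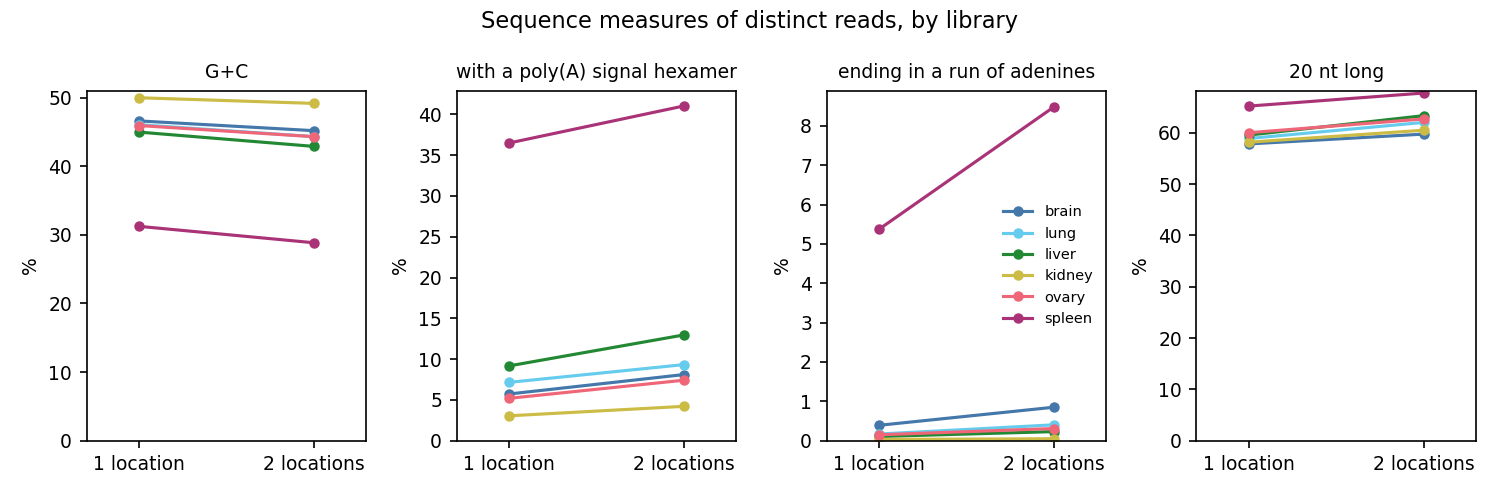
Each line joins the value of distinct reads of 1 location (left) and of 2 locations (right) in 1 library, in percent, for G+C content, the share with AATAAA or ATTAAA, the share ending in at least 6 adenines and the share of 20 nt. G+C falls and the other 3 rise in 6 of 6 libraries, and spleen lies apart from the other 5 in the first 3 panels.

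Some of the strong kidney reads have unequal lines. In 11 library entries of 7 sequences, the 2 lines of a read gave different counts, and 6 of the sequences ended at position 24619958 of the minus strand of chromosome 1. The higher lines of these entries sum to 491 and the lower to 19, and the higher count was used. The read with 188 counts at chr1:24619939-24619958 and chr10:70392294-70392313 had 131 in kidney, 53 in lung and 4 in brain by the higher lines and 5, 2 and 1 by the lower. At that end, 9 reads with 492 counts differed by 1 to 3 bases from a far stronger read, and the strongest read at that end had 3155 counts.
chromosomes 10 and 1, 188 counts: atccacctgtacactgttat
chromosomes 1 and 1, 113 counts, 106 in kidney: atcaacatgtacactgttat
chromosomes 10 and 1, 113 counts, all in kidney: atcaacctgtacactgttaa
Over the whole set, 265 reads (1.001%) with 771 counts differed in this way from a read of at least 10 times their counts at the same end, and they made up 5.12% of the kidney counts and 0.227 to 1.18% in the other 5 libraries. The kidney level of the chromosome 10 and 1 locus pair, 1438 CPM, rests on 244 counts by the higher lines.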

How the data were processed

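Per the submitters' processing notes, reads were aligned with Bowtie (version not stated) to mm9. The sources used here give neither mismatch settings nor the rule for reads of several locations. The authors deposited 1 table per library, with the read sequence and its count joined in the name of each line, and a score that is a display density and was used only as a check. Members and lists were chosen with earlier results of these data known. Sequences of minus lines were complemented, and the higher count was taken where lines differed. Locus pairs joined reads within 10 kb. Named were the 10 reads and locus pairs with the most counts, the 10 locus pairs with the most reads, and 3 reads and locus pairs per library. Genes were named by an exact match of at least 16 nt to RefSeq promoter windows (250 bases before to 50 after a start), of which 96.7% of single-gene matches lay on the gene's chromosome and strand. RefSeq of a later build gave gene order and microRNA sequences, and no coordinates. No annotation of repeats was used. Scripts in Python 3.11.15 with numpy 2.4.6 and scipy 1.17.1 were tested on simulated data. Each library is 1 replicate, so p-values measure only the spread between libraries. The scaling by a trimmed mean of M values was coded in Python.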

Additional observations from a re-analysis of the deposited data

Results flagged for a closer look

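Reads of 2 locations with 1 location in the segment of chromosome 17 that was left out had 3504 counts in 172 distinct sequences, a signal outside the reads described above. They numbered 430 in liver (5201 CPM of the library with the segment kept), 2162 in lung (4154), 695 in kidney (4060), 107 in brain (3041), 79 in ovary (2544) and 31 in spleen (654). Liver was the highest and spleen the lowest.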

How the results depend on the processing

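No paired analysis was possible because each tissue has 1 library, so tissues could not be blocked by replicate, while the measures were compared within libraries. Keeping the chromosome 17 segment raised the share of 2-location counts to 5.13% in brain, 5.26% in lung, 4.502% in liver and 5.21% in kidney. Counting each distinct sequence once gave 8.36% in spleen, 6.28% in ovary, 5.23% in lung, 5.17% in kidney, 5.10% in brain and 5.07% in liver. Cutting reads to 20 nt gave 5.06% in lung, 7.28% in liver, 4.98% in kidney and 9.86% in spleen. The lower of differing counts, chosen after seeing the data, gave 4.62% in kidney. The share on 1 chromosome was 10.07% over distinct sequences and 8.69 to 10.27% without each library in turn, lowest without liver. Led locus pairs numbered 102 of 257 tested from at least 10 counts, 16 over distinct sequences, 91 under TMM (factors from 0.527 in kidney to 1.65 in spleen) and 36 without spleen, added afterwards. No share of windows stands beside these counts. Under TMM the ratio turned to 0.705 and 0.815 for the locus pairs of chromosomes 1 and 15 and of 19 and 16, and to 0.71 for the read aaagtgcgagactgactggc. The cause was not tested. With the highest library found anew under TMM, added afterwards, 18 of the 28 named locus pairs and 13 of the 16 reads had the same highest library, and 17 of 20 led locus pairs and 10 of 11 led reads were still led by it. Scaled to reads of 1 location, the ratio of the same 2 libraries kept its call in all 28 locus pairs and in the 15 reads with a finite ratio.

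For the measures, reads of 20 nt only gave a G+C difference of -1.86, a final-adenine difference of 0.791 and a hexamer difference of 2.60 (adjusted p = 0.0521 by exact permutation, with 5 measures). Without lung the differences were -1.67, 0.773 and 2.82, with 2.65 for 20-nt reads (adjusted p = 0.09375 by exact permutation). Without spleen they were -1.54, 0.199, 2.345 and 2.77 (adjusted p = 0.075 by exact permutation). Fewer libraries raise the smallest p. Depth limits levels most in ovary and brain, where a count of 0 allows 98.1 and 85.8 CPM.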

Other observations

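Sequence shared with several other places was uncommon among these reads. No read was listed at more than 2 locations, so the listing itself limits what can be seen of repeats, and their share is not measured here. A stretch of 14 bases that also stood in reads of at least 3 other places was found in 2.13% of the distinct reads of 2 locations and in 0.947% of those of 1 location, and for at least 10 other places in 0.223% and 0.0682%. Reads that share such a stretch with at least 3 places and do not end in a run of adenines made up 1.73% and 0.808%. By counts the order was the other way: 4.05% against 4.79% for at least 3 places, and 0.211% against 0.328% for at least 10.

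A locus pair picked after its values were seen had both places on chromosome 17, at 35401023 and 34132979. Its 173 counts were 126 in lung, 20 in spleen, 16 in liver, 9 in kidney and 1 each in brain and ovary, with the highest level in spleen at 426 CPM, 1.73 times lung (1.02 to 2.79). Its plus side lies between the placed starts of Nfkbil1 and Vars2, with 7 genes of the H2 family among 18 listed, and its minus side between Vps52 and H2-Ke6, next to H2-K1.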
